A study of Mus musculus with 8 samples.

Results

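The HOX genes Hoxa7, Hoxa9, Hoxa10, Hoxb2, Hoxb3 and Hoxb4 and their TALE partner genes Meis1, Pbx2 and Pbx3 were followed in mouse leukaemia cells. These 9 genes, of 52459 rows in the deposited count table, were taken by symbol, and all 9 were found. They were chosen with earlier results from the same libraries known, among them the call of Hoxb3 as higher with ascorbate. The rule names symbols and holds no threshold, and which values led to the choice is not given. The values of the 9 genes are therefore a description in every comparison and no independent evidence. The leukaemia was driven by AE9a, a shortened RUNX1-RUNX1T1 fusion, in splenic AE9a+ leukaemic cells of genotype RTA shTet2. All donor cells were cKit+ marrow cells of C57BL/6J mice carrying a retrovirus with AE9a and a doxycycline-inducible hairpin against Tet2, so every group carried the hairpin. Each library came from 1 moribund mouse, which received 50000 leukaemic and 500000 wild-type support cells. The groups were 2 secondary recipients taken off doxycycline and given PBS (labelled Tet2 restoration, mice 21 and 23), 2 secondary recipients on doxycycline given ascorbate (mice 28 and 30), 1 primary recipient on doxycycline (mouse 12), and 3 secondary recipients on doxycycline given PBS (sustained Tet2 knockdown, mice 16, 17 and 19). Primary recipients were lethally irradiated C57BL/6J mice of 6 to 8 weeks, and no age is given in the sources used here for the secondary recipients. Withdrawal of doxycycline and restoration of Tet2 coincided in this design and cannot be told apart. The sources used here give neither the number of independent transductions nor the primary leukaemia from which each secondary one came. The p-values therefore measure the spread between mice that may share 1 leukaemia.

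HOX proteins are homeodomain transcription factors encoded in the HOXA, HOXB, HOXC and HOXD clusters, and in blood they are highest in stem and early progenitor cells and decline as cells mature. They bind DNA together with TALE homeodomain proteins, the PBX and MEIS families, of which MEIS proteins bind PBX and help to hold the complex on DNA. HOXA9 with MEIS1 drives many acute myeloid leukaemias, among them those with MLL rearrangements, whereas human leukaemias with the RUNX1-RUNX1T1 fusion are known for low HOXA and MEIS1 expression. HOXB4 expands haematopoietic stem cells when it is overexpressed.

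Total counts were 23.1 and 19.9 M in the Tet2-restored mice 21 and 23, 18.1 and 24.6 M in the ascorbate mice 28 and 30, 34.2 M in primary mouse 12, and 24.5, 24.0 and 27.1 M in the PBS knockdown mice 16, 17 and 19. Tet2, the target of the hairpin, had 14.1 and 23.1 CPM (counts scaled to the library's TMM-adjusted total) in the Tet2-restored mice 21 and 23, 13.7 and 11.7 in the ascorbate mice, 9.26 in the primary mouse and 12.6, 12.8 and 13.4 in the PBS knockdown mice. The library labelled Tet2-restored from mouse 21 was thus close to the knockdown libraries, and the difference was not called (log2 fold change 0.52, SE 0.24, edgeR adjusted p = 0.181). Leaving out mouse 21 gave 0.84, against 0.12 without mouse 23, each with a single Tet2-restored mouse left. With a length offset it was 0.97 (edgeR adjusted p = 0.0797). Against the cell type label, the progenitor genes Kit (54.4 to 206 CPM) and Myb (180 to 452 CPM) were detected in every library. The other markers of that list were lower. The myeloid granule genes Elane and Ctsg stayed at 0.653 CPM or less. The highest values were 0.645 CPM for Cebpa, 1.69 for Ms4a3, 6.33 for Mpo, 8.78 for Prtn3 and 19.8 for Cd34. The erythroid gene Klf1 (119 to 263 CPM) and the mast cell and basophil genes Ms4a2 (153 to 696 CPM) and Hdc (187 to 586 CPM) were also detected in every library. Of the same mast cell and basophil list, Mcpt8 (0 to 1.09 CPM) and Prss34 (0.0821 to 0.959 CPM) stayed low. In these bulk samples, fewer cells of a type and less RNA per cell cannot be told apart.

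Of the 9 genes, Hoxa7, Hoxa9, Hoxa10, Hoxb2 and Meis1 were near zero, with under 10 counts in every library. Hoxa9, the HOX factor most often linked to myeloid leukaemia, had 0 and 2 counts in the Tet2-restored mice, 4 and 0 in the ascorbate mice, 3 in the primary mouse and 2, 0 and 2 in the PBS knockdown mice, 13 in all. Meis1, its partner, had no count in the Tet2-restored mice, 0 and 1 in the ascorbate mice, 5 in the primary mouse and 0, 1 and 0 in the PBS knockdown mice, 7 in all. Of the 7 Meis1 counts, 5 came from primary mouse 12, and Hoxa9 counts were spread over 5 libraries. Hoxa10, a HOXA neighbour of Hoxa9, had no count in any of the 8 libraries, which allows at most 0.0852 CPM in the deepest library and 0.183 CPM in the shallowest (3 counts in each). Hoxa7 had 8 and 0 counts in the Tet2-restored mice, 1 and 0 in the ascorbate mice, 0 in the primary mouse and 1, 0 and 1 in the PBS knockdown mice, so 8 of its 11 counts came from mouse 21. Hoxb2, the HOXB gene next to Hoxb3, had 1 and 3 counts in the Tet2-restored mice, 1 and 3 in the ascorbate mice, 0 in the primary mouse and 0, 0 and 1 in the PBS knockdown mice. At these counts no difference between groups was detectable, and none of these 5 genes passed the filter on low counts.

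The remaining 4 genes, Hoxb3, Hoxb4, Pbx2 and Pbx3, passed that filter in all 4 comparisons. Levels between genes were compared per length, as the deposited FPKM (fragments scaled to gene length and library size). Pbx2, a widely expressed PBX factor, was highest with a mean of 13.8 FPKM over the 8 libraries (12.11 to 16.8). Hoxb4 followed at 3.44 FPKM (1.87 to 5.69), then Hoxb3 at 0.844 FPKM (0.39 to 1.58) and Pbx3 at 0.429 FPKM (0.14 to 1.9). The ranges of Pbx2, Hoxb4 and Hoxb3 did not overlap, whereas those of Hoxb3 and Pbx3 did, because Pbx3 had 1.9 FPKM in the primary mouse and at most 0.32 FPKM in the 7 secondary mice. The other 5 genes averaged 0.0188 FPKM (Hoxa7), 0.015 FPKM (Hoxb2), 0.0125 FPKM (Hoxa9), 0.00125 FPKM (Meis1) and 0 (Hoxa10), an order that rests on too few counts to tell neighbours apart.

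Start-site windows of 2 expressed genes (Hoxb4 and Pbx2) and of the near-zero partners Meis1 and Hoxa9 are printed because the study concerns TET2, which oxidises methylated cytosine, and cytosine methylation in mammals falls on CpG sites. The windows are RefSeq sequence of GRCm38.p6, 250 bases before to 50 bases after the annotated start, 5′ to 3′ on the gene's strand, with each CpG in capitals. RefSeq windows were held for 6 of the 9 genes, and Hoxb2, Hoxb3 and Pbx3 had none. The Hoxb4 window is chr11:96318017-96318316 on the plus strand, the Pbx2 window chr17:34592009-34592308 on the plus strand, the Meis1 window chr11:19018920-19019219 on the minus strand and the Hoxa9 window chr6:52227321-52227620 on the minus strand.
Hoxb4: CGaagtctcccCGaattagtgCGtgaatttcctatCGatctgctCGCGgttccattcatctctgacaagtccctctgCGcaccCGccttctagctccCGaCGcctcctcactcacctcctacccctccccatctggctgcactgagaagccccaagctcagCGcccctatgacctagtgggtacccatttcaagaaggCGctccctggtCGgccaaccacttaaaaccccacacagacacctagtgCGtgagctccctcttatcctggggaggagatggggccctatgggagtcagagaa
Pbx2: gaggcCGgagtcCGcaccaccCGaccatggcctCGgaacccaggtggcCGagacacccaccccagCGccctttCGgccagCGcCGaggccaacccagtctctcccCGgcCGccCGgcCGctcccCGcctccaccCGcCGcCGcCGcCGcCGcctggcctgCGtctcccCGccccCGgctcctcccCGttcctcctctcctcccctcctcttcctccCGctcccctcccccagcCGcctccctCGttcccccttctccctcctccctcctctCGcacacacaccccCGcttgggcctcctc
Meis1: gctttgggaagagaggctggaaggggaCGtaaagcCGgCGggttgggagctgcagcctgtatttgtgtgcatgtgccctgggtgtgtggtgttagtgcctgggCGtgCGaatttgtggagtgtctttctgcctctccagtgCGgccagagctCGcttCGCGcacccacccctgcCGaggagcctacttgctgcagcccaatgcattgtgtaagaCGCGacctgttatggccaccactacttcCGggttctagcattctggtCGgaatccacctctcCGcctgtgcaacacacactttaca
Hoxa9: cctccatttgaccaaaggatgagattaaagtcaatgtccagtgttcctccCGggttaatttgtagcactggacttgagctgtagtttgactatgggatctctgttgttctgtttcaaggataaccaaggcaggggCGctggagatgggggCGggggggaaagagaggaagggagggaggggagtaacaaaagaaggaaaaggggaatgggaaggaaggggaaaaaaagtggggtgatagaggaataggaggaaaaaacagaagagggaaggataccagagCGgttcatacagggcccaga

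The Hoxb4 window holds 14 CpG sites, the Pbx2 window 29, the Meis1 window 15 and the Hoxa9 window 4, against a median of 7 over 32851 RefSeq windows of the same length. Fewer CpG sites were found in 63.7% of all windows than in that of Hoxb4, and in 65.4% than in that of Meis1. Expressed Hoxb4 and near-zero Meis1 thus had almost the same CpG content. The share was 87.1% for expressed Pbx2 and 31.4% for near-zero Hoxa9, so that pair differed. The Pbx2 window lies inside the gene as GENCODE draws it, and so does the Hoxa9 window. On either strand, the RUNX motif TGTGGT was found at 1 place in the Meis1 window, 166 bases before the start, and in 16.8% of all windows. The CCAAT motif was found at 1 place in the Meis1 window, 54 bases before the start, and in 37.4% of all windows. The motifs CACGTG (an E-box, in 7.15% of windows), TGATTNAT (a PBX-HOX site, 3.22%) and TGACAG (a MEIS site, 19.2%) were in none of the 4 printed windows. These matches describe letters in a window, and DNA methylation was not measured in these libraries.

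Hoxb3 and Hoxb4, neighbours on chromosome 11 of GRCm38, had higher mean levels in the Tet2-restored and in the ascorbate mice than in the PBS knockdown mice, and Hoxb3 with ascorbate was the difference that passed the test. Hoxb4 (96318267 to 96321638, plus strand, 2 exons) encodes the HOX factor used to expand stem cells. Hoxb3 (96323326 to 96347930, plus strand, 7 merged exons in GENCODE vM21) is a further HOXB factor of early blood cells. Of its exonic bases, 52.9% overlap the antisense gene Hoxb3os, which had no count in any library, and with no strand setting in the sources used here, sense and antisense reads cannot be told apart.

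Hoxb3 had 3.79 and 5.55 CPM in the Tet2-restored mice 21 and 23, 5.86 and 6.81 CPM in the ascorbate mice 28 and 30, 1.65 CPM in the primary mouse and 1.65, 1.72 and 2.01 CPM in the PBS knockdown mice. All 4 mice off doxycycline or given ascorbate lay above all 4 knockdown mice without ascorbate. The TALE genes Meis3 and Tgif1 and the antisense transcript Hoxb5os showed the same split. Its share over all genes was not computed, so it is not particular to Hoxb3. The count behind the lowest of these 4 values was 92 in mouse 21 (95% Poisson interval 3.06 to 4.65 CPM), and the highest PBS knockdown value rested on 56 counts in mouse 19 (1.52 to 2.61 CPM).

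Hoxb3 rose with ascorbate, to 6.34 ± 0.671 CPM in the ascorbate mice (SD, n = 2) against 1.79 ± 0.187 CPM in the PBS knockdown mice (SD, n = 3). The log2 fold change was 1.81 (SE 0.31, 3.5-fold), with an edgeR adjusted p of 0.0298 over all 12137 genes tested. It was the only one of the 4 tested genes that was called there, and 2.86% of all genes tested were called (1.09% higher, 1.77% lower). The call was lost when any of the mice 16, 17, 19, 28 or 30 was left out (adjusted p 0.0661 to 0.131, log2 fold change 1.69 to 1.92) and on the log2 FPKM scales (adjusted p 0.0525 and 0.0555). DESeq2 (adjusted p = 0.000113) and limma voom (0.00846) called it.

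In the Tet2-restored mice Hoxb3 averaged 4.67 ± 1.24 CPM (SD, n = 2) against 1.79 ± 0.187 CPM in the PBS knockdown mice (SD, n = 3). The log2 fold change of 1.37 (SE 0.31, 2.59-fold) did not pass, with an edgeR adjusted p of 0.0532. No gene passed in that comparison (0% of 12137 called by edgeR and none by limma voom), although 3549 (29.2%) had an unadjusted p under 0.05 and DESeq2 called 1951 (16.1%). Mice 21 and 23 bore on this value unequally, since the log2 fold change was 1.63 without mouse 21 and 1.07 without mouse 23. Each of these rests on a single Tet2-restored mouse. DESeq2 called Hoxb3 at an adjusted p of 0.00545.

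Hoxb4 had 8.45 and 12.8 CPM in the Tet2-restored mice 21 and 23, 14.8 and 11.8 CPM in the ascorbate mice 28 and 30, 4.77 CPM in the primary mouse and 5.77, 6.32 and 6.74 CPM in the PBS knockdown mice. As for Hoxb3, the 4 mice off doxycycline or given ascorbate lay above the other 4. Means were 13.3 ± 2.09 CPM in the ascorbate mice (SD, n = 2) and 6.27 ± 0.487 CPM in the PBS knockdown mice (SD, n = 3), a log2 fold change of 1.07 (SE 0.25, 2.1-fold) that did not pass (edgeR adjusted p = 0.056). DESeq2 (0.0049) and limma voom (0.0233) called it. The Tet2-restored mice averaged 10.6 ± 3.09 CPM (SD, n = 2), and their log2 fold change of 0.76 (SE 0.26) did not pass either (edgeR adjusted p = 0.0942). Without mouse 21 it was 1.04, and without mouse 23 it was 0.42, each with a single Tet2-restored mouse left.

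Both comparisons share the 3 PBS knockdown mice, so their values are given side by side and not as support for each other. Non-overlapping groups were common in these libraries. Of all genes tested, 24.9% had both Tet2-restored mice above all PBS knockdown mice and 22.4% had both ascorbate mice above them, so the separation of Hoxb3 and Hoxb4 alone sets neither gene apart. When the Tet2-restored mice were compared with the ascorbate mice directly, the log2 fold change was -0.43 for Hoxb3 (SE 0.34, edgeR adjusted p = 0.562) and -0.31 for Hoxb4 (SE 0.28, 0.62), and no difference between the 2 arms was detected. None of the 4 tested genes was called in that comparison (0.00824% of all genes, 1 gene), at an unadjusted p under 0.05 or by DESeq2 or limma voom, against 16.2%, 3.66% and 0.00824% of all genes tested.

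**Figure D1:**
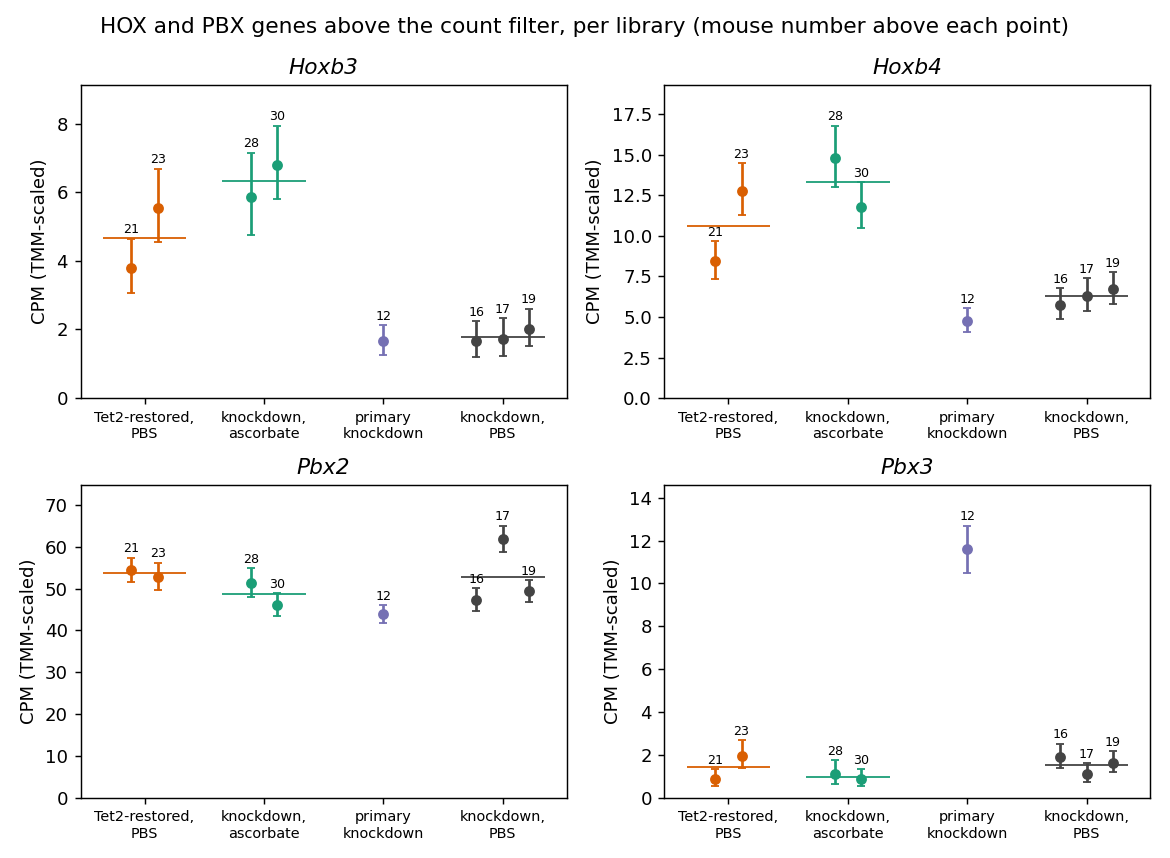
CPM of Hoxb3, Hoxb4, Pbx2 and Pbx3 in each library, 1 point per mouse with its number and 95% Poisson interval, and groups along the x axis. Hoxb3 lies at 3.79 to 6.81 CPM in the 4 Tet2-restored and ascorbate mice and at 1.65 to 2.01 CPM in the others, and Pbx3 stands at 11.6 CPM in primary mouse 12 alone.

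Several marker groups and library measures also differed between mice. For macrophage and for mast cell and basophil markers, the primary mouse lay with the Tet2-restored and ascorbate mice. For the progenitor markers and the mitochondrial share, these mice overlapped the PBS knockdown mice. The 10 macrophage markers summed to 10 to 28.6 CPM in the Tet2-restored mice, 21.4 to 22.1 in the ascorbate mice, 21.1 in the primary mouse and 37.8 to 72.1 in the PBS knockdown mice. None of the 10 was at 0 in any library, and 3 of the 10 fell with ascorbate (Vcam1, Mertk and Mrc1, log2 fold changes -2.92, -3.01 and -2.35, edgeR adjusted p 0.0253, 0.0383 and 0.0494). Of all genes tested, 1.77% were called lower and 1.09% higher with ascorbate, shares that also apply to the next 2 lists. The 7 mast cell and basophil markers summed to 1110 to 1370 CPM in the Tet2-restored mice, 773 to 1060 in the ascorbate mice, 1370 in the primary mouse and 443 to 599 in the PBS knockdown mice. Of these 7, Cma1, a mast cell chymase, rose with ascorbate (log2 fold change 1.38, adjusted p = 0.0408), and Mcpt8 was at 0 in at least 1 library. The 9 myeloid progenitor markers summed to 287 to 353 CPM in the Tet2-restored mice, 302 to 346 in the ascorbate mice, 688 in the primary mouse and 342 to 576 in the PBS knockdown mice, and Elane, Ctsg and Cd34 were at 0 in at least 1 library. Of the 7 tested, Prtn3, a myeloid granule protease, rose with ascorbate, to 7.85 CPM in the ascorbate mice against 2.47 CPM in the PBS knockdown mice (log2 fold change 1.66, SE 0.32, edgeR adjusted p = 0.0356). Myb, Cd34 and Kit were not called (log2 fold changes -0.65, -1.35 and -0.31, adjusted p 0.135, 0.419 and 0.659). With Tet2 restoration, edgeR and limma voom called none of these markers. DESeq2 called 5 of 10 macrophage, 4 of 7 mast cell and basophil and 3 of 7 tested progenitor markers, against 16.1% of all genes. Mitochondrial genes took 9.49% and 14.5% of counts in the Tet2-restored mice, 17.1% and 9.73% in the ascorbate mice, 5.16% in the primary mouse and 9.09% to 11.4% in the PBS knockdown mice. The 6 megakaryocyte and platelet markers summed to 3.48 to 3.79 CPM in the Tet2-restored mice and 2.59 to 4.83 in the ascorbate mice. Their sums were 1.36 CPM in the primary mouse and 1.98 to 2.65 in the PBS knockdown mice. Of these 6 markers, 3 stayed under 10 counts in every library. The part of all these measures in the Hoxb3 and Hoxb4 values was not tested.

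**Figure D2:**
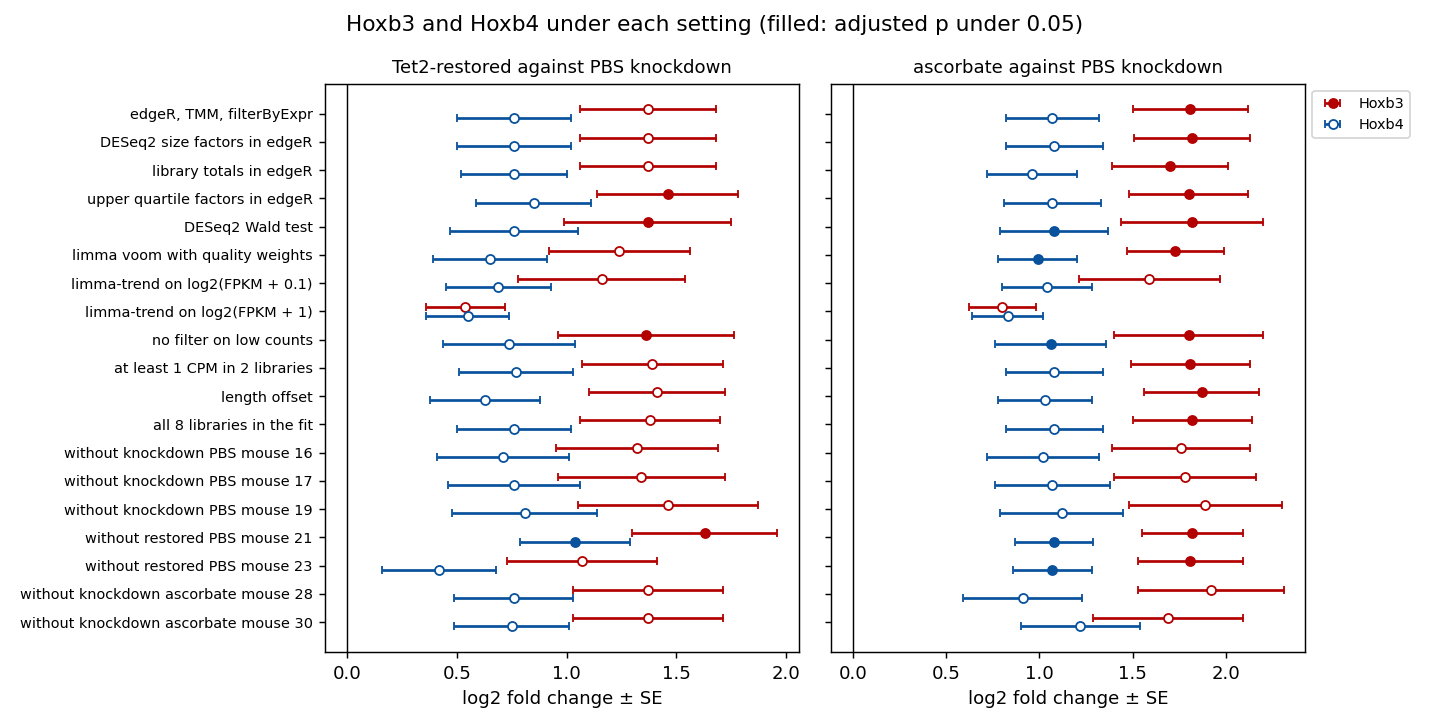
Log2 fold change of Hoxb3 and Hoxb4 (± SE) under each processing setting and with each mouse left out, for Tet2-restored and for ascorbate against PBS knockdown mice, filled where the adjusted p was under 0.05. All values were above 0, and for ascorbate with a mouse left out Hoxb3 ran from 1.69 to 1.92 and Hoxb4 from 0.91 to 1.22.

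Pbx2 was called in no comparison. It had 54.4 and 52.9 CPM in the Tet2-restored mice, 51.3 and 46.1 CPM in the ascorbate mice, 43.9 CPM in the primary mouse and 47.3, 61.9 and 49.4 CPM in the PBS knockdown mice. The PBS knockdown mice overlapped both other secondary groups, while both Tet2-restored mice lay above both ascorbate mice, as for 22.8% of all genes tested. The PBS knockdown mice held both the highest value and the widest spread among secondary groups (53.6 ± 1.1 CPM in Tet2-restored, 48.7 ± 3.71 in ascorbate and 52.8 ± 7.9 in PBS knockdown mice, SD, n = 2, 2 and 3). Log2 fold changes were 0.02 (SE 0.17, edgeR adjusted p = 0.945) for Tet2-restored and -0.13 (SE 0.17, 0.673) for ascorbate against PBS knockdown mice. Pbx2 lies on chromosome 17 (34591266 to 34597400, plus strand, GRCm38), and 6.24% of its exonic bases are shared with Gpsm3 on the same strand, a gene with 15433 counts over the 8 libraries, so some of its reads may be uncertain.

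Pbx3, a PBX factor known as a partner of HOXA9 in leukaemia (chromosome 2, 34171457 to 34373142, minus strand), was high in the primary library. It had 0.866 and 1.97 CPM in the Tet2-restored mice, 1.1 and 0.878 CPM in the ascorbate mice, 11.6 CPM in the primary mouse and 1.9, 1.11 and 1.61 CPM in the PBS knockdown mice. The primary value rested on 407 counts (95% Poisson interval 10.5 to 12.7 CPM), and no secondary library exceeded 47 counts. In the fit of all 8 libraries the primary mouse stood at a log2 fold change of 2.9 over the secondary PBS knockdown mice (SE 0.48, 7.48-fold), which did not pass (edgeR adjusted p = 0.078). It ranked 22 by p among 13024 genes, of which 0.115% were called (0.0691% higher, 0.0461% lower), and none of the 4 listed genes tested was among them. DESeq2 (adjusted p = 0.000584), limma voom (0.00144) and edgeR without the filter on low counts (2.16e-06) called it. That comparison rests on 1 primary mouse, whose spread was assumed to be that of the other groups. Among secondary mice, the log2 fold change of Pbx3 was -0.13 for Tet2-restored (SE 0.48, edgeR adjusted p = 0.879) and -0.65 for ascorbate against PBS knockdown mice (SE 0.5, 0.446). The Tet2-restored mice overlapped the PBS knockdown mice. The ascorbate mice lay just below them, as did 23.5% of all genes tested.

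The other 3 tested genes did not stand out in the primary mouse. Its log2 fold change over the secondary PBS knockdown mice was -0.12 for Hoxb3 (SE 0.42, edgeR adjusted p = 0.949), -0.4 for Hoxb4 (SE 0.34, 0.764) and -0.27 for Pbx2 (SE 0.22, 0.752).

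**Figure D3:**
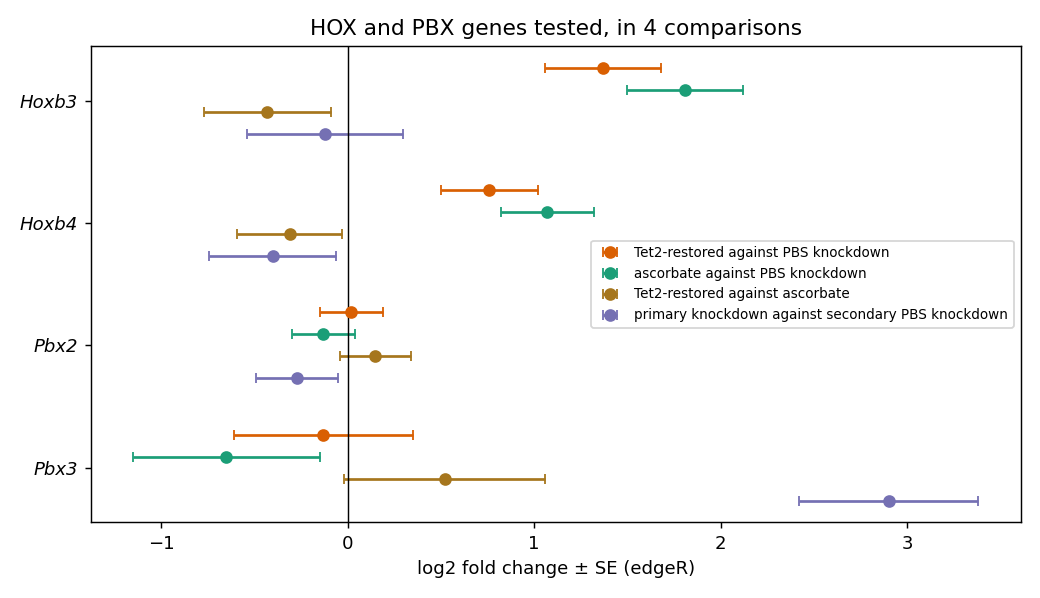
Log2 fold change (± SE) of the 4 tested genes in the 4 comparisons. Hoxb3 and Hoxb4 lie right of 0 for Tet2-restored (1.37 and 0.76) and ascorbate (1.81 and 1.07) against PBS knockdown mice, Pbx2 lies between -0.27 and 0.15, and Pbx3 lies at 2.9 for the primary mouse.

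Over the 4 tested genes, the median log2 fold change was 0.39 for Tet2-restored against PBS knockdown mice (3 of 4 above 0), 0.47 for ascorbate against PBS knockdown mice (2 of 4), -0.08 for Tet2-restored against ascorbate mice (2 of 4) and -0.2 for primary against secondary PBS knockdown mice (1 of 4). Over all genes tested it was 0, -0.01, 0.01 and -0.01 in these comparisons. DESeq2 called 1 of the 4 genes for Tet2-restored, 2 for ascorbate and 1 for primary against PBS knockdown mice, and limma voom called 0, 2 and 1. Of all genes tested, DESeq2 called 16.1%, 11% and 1.7% in these comparisons and limma voom 0%, 9.1% and 2.14%, so 1 of 4 by DESeq2 for Tet2 restoration is near the background. The ascorbate counts and median include Hoxb3, which was chosen with its call there known, so they are no independent evidence. Only 4 of the 9 genes had enough counts to be tested, and these figures leave out the 5 near-zero genes.

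Within the HOXB cluster, expression was patchy along the chromosome. From Hoxb13, with distances taken between the lowest coordinates of the genes, the near-zero genes Hoxb9 (77.1 kb), Hoxb8 (87.6 kb), Hoxb7 (92.3 kb) and Hoxb6 (98.2 kb) lay between expressed Hoxb13 and expressed Hoxb5 (109 kb), Hoxb4 (124 kb) and Hoxb3 (129 kb), and near-zero Hoxb2 (156.2 kb) and Hoxb1 (171.4 kb) followed. The boundary between Hoxb3 and Hoxb2 was sharp, with up to 163 counts in a library for Hoxb3 and at most 3 for Hoxb2.

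Hoxb13, a posterior HOX gene known from the prostate and the tail end of the body axis, was the highest HOX gene, at a mean of 6.66 FPKM. It had 5.39 and 5.31 FPKM in the Tet2-restored mice, 10.39 and 10 FPKM in the ascorbate mice, 5.2 FPKM in the primary mouse and 5.24, 6.29 and 5.42 FPKM in the PBS knockdown mice. Only the ascorbate mice stood out. Hoxb13 rose with ascorbate, to 22.8 CPM in the ascorbate mice against 12.6 CPM in the PBS knockdown mice (log2 fold change 0.85, SE 0.19, edgeR adjusted p = 0.0459). The call was lost with library totals (0.0659), with upper quartile factors (0.0508) and when any of the mice 16, 17, 19, 28 or 30 was left out (up to 0.222). The Tet2-restored mice lay at -0.06 against the PBS knockdown mice (SE 0.19, adjusted p = 0.852), and Tet2-restored against ascorbate mice differed by -0.91 without passing (SE 0.21, 0.144), a difference that DESeq2 called (-0.93, 0.0095).

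Hoxb5, a marker of long-term stem cells, had 1.72 and 2.46 FPKM in the Tet2-restored mice, 2.6 and 1.48 FPKM in the ascorbate mice, 1.11 FPKM in the primary mouse and 1.48, 1.53 and 1.43 FPKM in the PBS knockdown mice. Its log2 fold changes of 0.51 for Tet2-restored (SE 0.32, edgeR adjusted p = 0.313) and 0.45 for ascorbate against PBS knockdown mice (SE 0.32, 0.414) did not pass. The ascorbate value was 0.01 without mouse 28 and 0.8 without mouse 30, and the Tet2-restored value 0.24 without mouse 23. Hoxb5os, an antisense transcript of the same stretch, was the only HOX cluster noncoding gene at 0.5 FPKM or more (mean 11.7 FPKM, 8.8 to 16.26), and it was not called in any comparison. Of the 4 HOXB genes tested, 2 were called higher with ascorbate (Hoxb3 and Hoxb13), against 1.09% of all genes tested, and Hoxb3 belongs to the genes chosen with that call known. Their median log2 fold change was 0.96, against -0.01 over all genes. With Tet2 restoration none of the 4 was called, 2 had an unadjusted p under 0.05, DESeq2 called 1, limma voom called none (29.2%, 16.1% and 0% of all genes), and the median was 0.63.

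**Figure D4:**
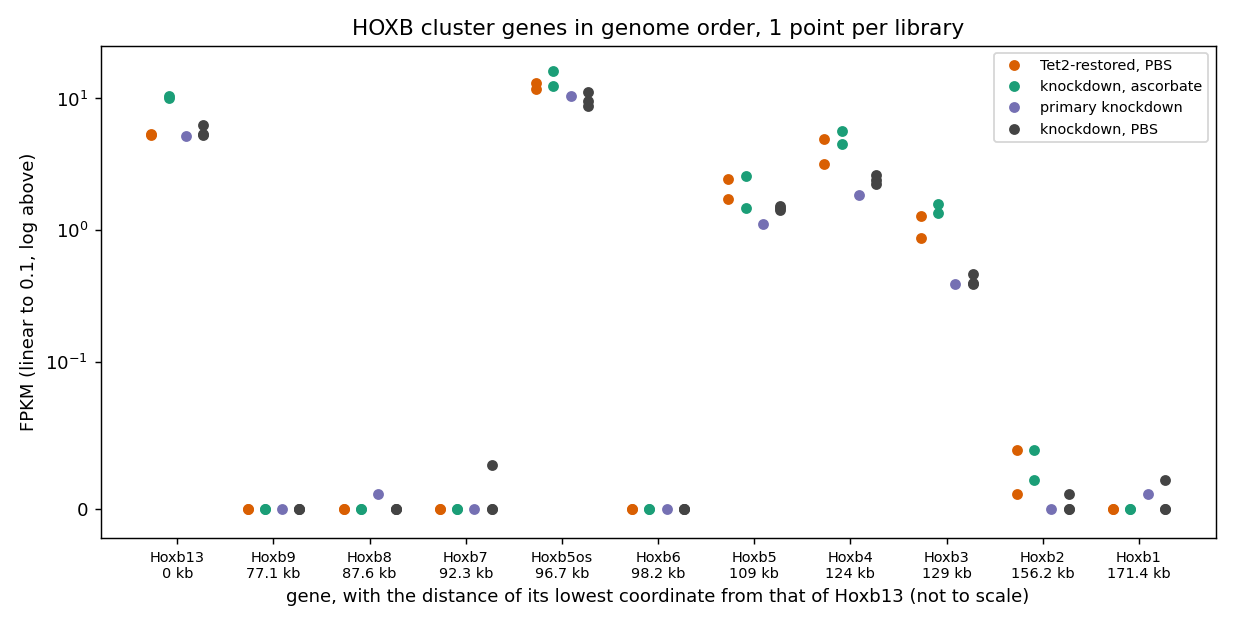
FPKM of each HOXB cluster gene in genome order from Hoxb13 (linear to 0.1, log above), 1 point per library coloured by group, with distances from Hoxb13 in kb under the names. Hoxb13, Hoxb5os, Hoxb5, Hoxb4 and Hoxb3 carry the signal, and Hoxb9, Hoxb8, Hoxb7, Hoxb6, Hoxb2 and Hoxb1 lie at or near 0 in every library.

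Across the 4 clusters, 6 of 39 HOX genes averaged at least 0.5 FPKM (Hoxb3, Hoxb4, Hoxb5, Hoxb13, Hoxc4 and Hoxc5), 31 stayed under 10 counts in every library and 16 had no count at all. The HOXA cluster, home of Hoxa7, Hoxa9 and Hoxa10, was near zero throughout, with all 11 genes under 10 counts and 5 of them without a count. The HOXD cluster was likewise near zero (9 of 9, with 7 lacking any count).

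Most TALE genes were expressed, with 8 of 11 at 0.5 FPKM or more and 2 under 10 counts in every library (Meis1 and Pknox2). While Meis1 was near zero, the family members Meis3 (mean 3.59 FPKM, 2.19 to 5.49) and Meis2 (0.788 FPKM, 0.21 to 1.69) were detected. Pbx4 (2.56 FPKM) lay below Pbx2 and above Pbx3 on average. Pknox1, which binds PBX proteins as MEIS does, had 5.3 to 8.33 FPKM, and Tgif1, a TALE repressor, had 3.25 to 5.03 FPKM.

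Pbx4 had 2.67 and 5.98 FPKM in the Tet2-restored mice, 2.75 and 2.12 FPKM in the ascorbate mice, 1.47 FPKM in the primary mouse and 1.3, 1.79 and 2.38 FPKM in the PBS knockdown mice. Mouse 23 held the highest value, and the log2 fold change with Tet2 restoration was 1.25 (SE 0.38, edgeR adjusted p = 0.0792). This was 1.72 without mouse 21 and 0.57 without mouse 23, each with a single Tet2-restored mouse left. Tgif2, a relative of Tgif1, had 0.66 and 0.35 FPKM in the Tet2-restored mice, 0.14 and 0.2 FPKM in the ascorbate mice, 1.76 FPKM in the primary mouse and 0.63, 0.67 and 0.76 FPKM in the PBS knockdown mice. The ascorbate mice were lowest, and the log2 fold change of -1.96 (SE 0.45) did not pass (edgeR adjusted p = 0.0521), while DESeq2 (0.00811) and limma voom (0.0259) called it. Of its exonic bases, 56.7% overlap an antisense transcript, so sense and antisense reads cannot be told apart. None of the 9 tested TALE genes was called by edgeR for Tet2-restored (3 with an unadjusted p under 0.05, DESeq2 1, limma voom 0), ascorbate (1, 1 and 1) or primary against PBS knockdown mice (2, 1 and 1). Of all genes tested, the same shares were 29.2%, 16.1% and 0% for Tet2-restored, 23.6%, 11% and 9.1% for ascorbate and 9.08%, 1.7% and 2.14% for primary against PBS knockdown mice.

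**Figure D5:**
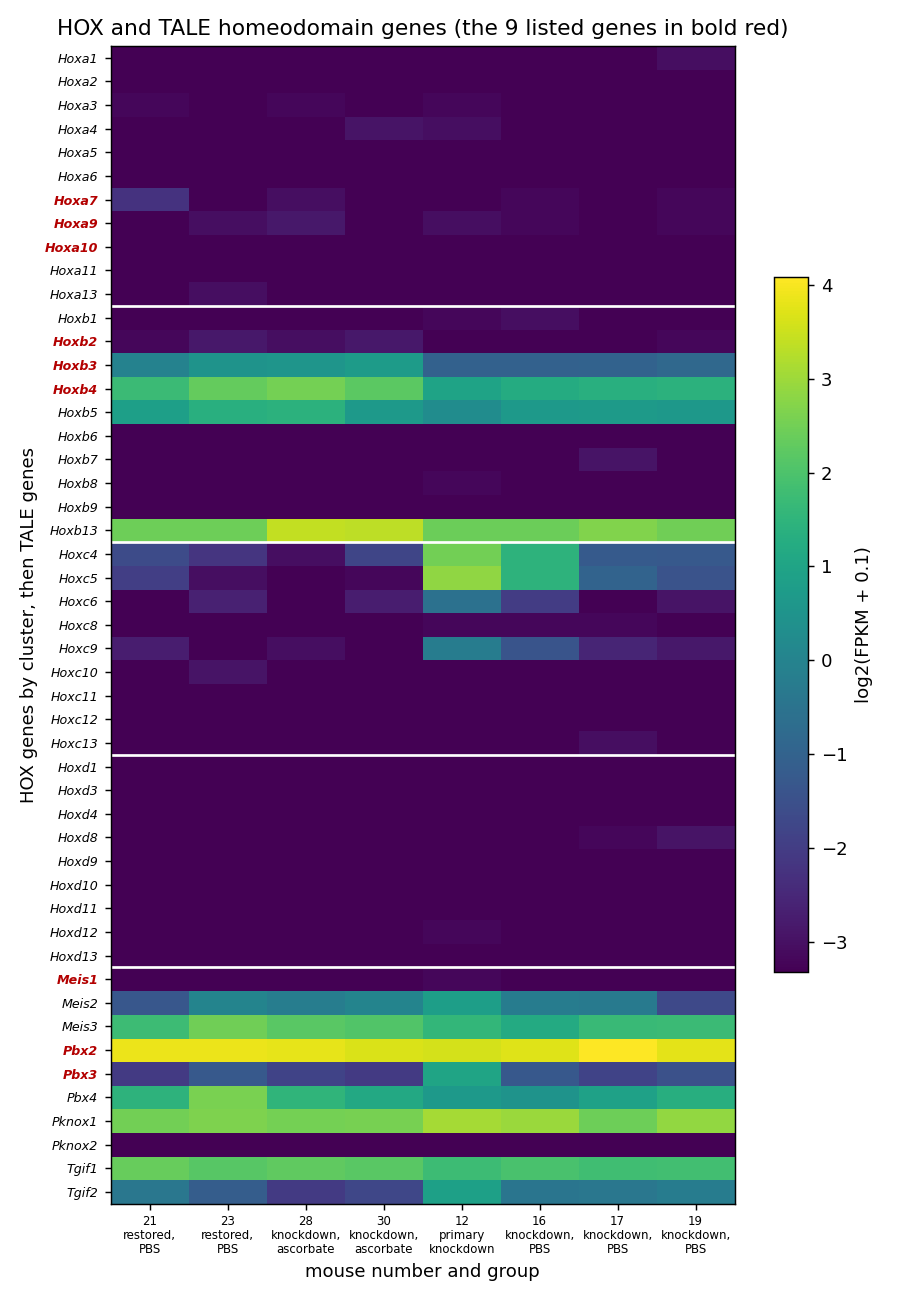
Colour scale of log2(FPKM + 0.1) for the HOX genes by cluster and TALE genes (rows) in the 8 libraries (columns, by group and mouse number), with the 9 listed genes in bold red. The HOXA and HOXD rows are near zero in all 8 libraries, as are Meis1 and Pknox2 among the TALE rows.

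The lists of HOX regulators, of HOXA9 and MEIS1 targets and of stem cell genes are given by their counts, to be read against those shares of all genes. With Tet2 restoration edgeR called no gene at all. Among 18 tested of 21 listed genes of HOX activation, including the MLL methyltransferase complex and its elongation partners, none was called with Tet2 restoration (8 with an unadjusted p under 0.05, DESeq2 4, limma voom 0), and 2 of 18 were above 0 with a median log2 fold change of -0.43. With ascorbate none was called (5, 1 and 0), 9 of 18 were above 0 and the median was 0.02. Among 12 tested of 20 listed HOXA9 and MEIS1 targets none was called with Tet2 restoration (3, 3 and 0, median -0.51) or with ascorbate (2, 0 and 0, median -0.34). Among 9 tested of 20 listed stem and early progenitor genes none was called with Tet2 restoration (3, 3 and 0, median 0.17) or with ascorbate (2, 2 and 0, median 0.25). Against the secondary PBS knockdown mice, the primary mouse had medians of 0.18 for HOX activation (18 genes), 0.34 for the targets (15 genes) and 1.03 for the stem and early progenitor genes (12 genes). The last 2 lists held 12 and 9 tested genes in the fit of secondary mice. With the primary mouse a gene could pass the filter through 1 library, so these 2 medians may lean towards genes high in that mouse.

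Across the 8 libraries, Hoxb3 and Hoxb4 varied together, with a Pearson r of log2 CPM of 0.95 and a Spearman rho of 0.93. Among 13023 other genes, those most like Hoxb3 were Rnase4 (r 0.984, rho 0.9), Litaf (0.983, 0.86) and Mark4 (0.981, 0.98), and those most like Hoxb4 were Dedd2 (0.987, 0.98), Zmym3 (0.985, 0.98) and Rhof (0.984, 0.98). Dedd2 had 84.1 and 128 CPM in the Tet2-restored mice, 151 and 118 CPM in the ascorbate mice, 36 CPM in the primary mouse and 58.2, 60.7 and 58.2 CPM in the PBS knockdown mice, the same split of mice as for Hoxb4. Most like Pbx2 were Sac3d1 (r 0.963, rho 0.95), Mrps12 (0.943, 0.95) and Nubp2 (0.93, 0.98). For Pbx3 the r values were 0.96 for Dag1, 0.954 for Setmar and 0.952 for Psd3, with rho of 0.76, 0.54 and 0.62, and the primary mouse held by far the highest Pbx3 value among these points. The points of each correlation share 8 libraries in 4 groups and their depths, and likeness was searched over all genes, so these values are descriptions.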

How the data were processed

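RNA was sequenced from 8 libraries, with poly(A) RNA enriched on oligo-dT beads, per the labels' protocols. The deposited tables hold the authors' raw counts by gene symbol, without normalization, and their FPKM values. The submitters' processing notes name STAR, featureCounts, DESeq2 and the genome build mm10 (GRCm38). Versions and strand setting are not given in the sources used here. CPM were computed on library totals times edgeR's TMM factor, and intervals are 95% Poisson ones. These intervals and the 3-count limit cover counting error only, since no molecular identifiers were used. The main test was edgeR 4.0.16 quasi-likelihood (R 4.3.3, robust, filterByExpr with a minimum count of 10, Benjamini-Hochberg over all genes, threshold 0.05), tested on simulated data. The 3 comparisons among secondary mice used 1 fit of 7 libraries, and the primary comparison used all 8. Where a group held 1 mouse, a gene could pass the filter on low counts through 1 library. Alternatives used DESeq2 1.42.0, limma 3.58.1 (voom with quality weights, and limma-trend on log2 FPKM with a pseudocount of 0.1 or 1), other scaling factors and filters, a length offset, another choice of libraries and each mouse left out.

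The 9 genes and all lists were chosen with earlier results of these data known. Named were the 9 genes, HOX and TALE genes with a mean of at least 0.5 FPKM, up to 4 genes of another list where one was called, and the 3 genes most like each tested gene. Kit, Myb, Elane, Ctsg, Mpo, Cebpa, Ms4a3, Klf1, Ms4a2, Hdc, Mcpt8, Hoxb6 to Hoxb9, Hoxb1, Hoxc6, Hoxc9 and Pknox2 were named after their values were seen. Some genes are not reported here.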

Additional observations from a re-analysis of the deposited data

How the results depend on the processing

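Leaving out mouse 21, 23, 28 or 30 left a single mouse in its group and loosened the filter on low counts. Counts of genes called under those settings therefore rest on a single mouse and on a larger set of genes. For Tet2-restored against PBS knockdown mice, edgeR called 0 genes. The count was 367 with DESeq2 size factors, 345 with upper quartile factors, 1951 with the DESeq2 Wald test, 2207 without a filter on low counts, 321 with at least 1 CPM in 2 libraries, and 0 to 1692 with a mouse left out, the 1692 being without mouse 21. Of the 9 listed genes, 1 was called with upper quartile factors, 1 with the DESeq2 Wald test, 1 without the filter, and 0 to 2 with a mouse left out. For ascorbate against PBS knockdown mice, 347 genes were called. The count was 1339 with the DESeq2 Wald test, 1105 with limma voom and 1498 without the filter. With a mouse left out it ran from 2 to 796, at 5, 87 and 15 without mice 16, 17 and 19, 796 and 763 without mice 21 and 23, and 2 and 7 without mice 28 and 30. Of the 9 listed genes, 1 was called there, 2 with the DESeq2 Wald test, limma voom or no filter, 0 on both log2 FPKM scales, and 0 to 2 with a mouse left out. Under library totals, 83 genes were higher and 300 lower with ascorbate, against 132 and 215 with TMM factors.

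For Tet2-restored against ascorbate mice, 1 gene was called. The count was 444 with the DESeq2 Wald test, 582 without the filter, 3 on each log2 FPKM scale, with the length offset or with all 8 libraries in the fit, and 0 to 5 with a mouse left out. None of the 9 listed genes was called under any of these settings. For primary against secondary PBS knockdown mice, 15 genes were called. The count was 222 with the DESeq2 Wald test, 279 with limma voom, 8 on the log2(FPKM + 0.1) scale, 467 without the filter, 5 with at least 1 CPM in 2 libraries, and 6 to 45 with a mouse left out. Of the 9 listed genes, 1 was called with the DESeq2 Wald test, limma voom or no filter, and 0 to 0 with a mouse left out.

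Changes of sign affected log2 fold changes that had not passed the test. With Tet2 restoration, Pbx3 was 0.04 with the length offset, 0.05 without mouse 16 and 0.36 without mouse 21 (-0.84 to 0.36 over the mice left out), Pbx2 was -0.05 without mouse 16 and -0.03 without mouse 19 (-0.05 to 0.14), and Hoxb13 was 0.03 with upper quartile factors and 0.02 without mouse 17 (-0.11 to 0.02). With ascorbate, Tet2 was 0.17 with the length offset and 0.07 without mouse 30 (-0.15 to 0.07). For Tet2-restored against ascorbate mice, Pbx3 was -0.18 without mouse 23 (-0.18 to 1). Settings for Hoxb5, Hoxb13, Hoxc4, Hoxc5, Meis2, Pbx4, Tgif2 and Tet2 were chosen after seeing the data. The cause of these shifts was not tested. No paired analysis was possible because every library has its own mouse number. Depth limits the near-zero genes, for which no difference below the 3-count limit can be seen, and with 2 or 3 mice a group a single mouse decides calls near the threshold.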

Other observations

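HOXC genes differed widely between libraries, also within the PBS knockdown group. Hoxc5 had 12 and 1 counts in the Tet2-restored mice 21 and 23, 0 and 1 in the ascorbate mice 28 and 30, 772 in primary mouse 12 and 203, 31 and 23 in the PBS knockdown mice 16, 17 and 19. Hoxc4 had 14 and 6 counts in the Tet2-restored mice, 1 and 12 in the ascorbate mice, 506 in the primary mouse and 170, 21 and 23 in the PBS knockdown mice. Hoxc9 followed with 3 and 0 counts in the Tet2-restored mice, 1 and 0 in the ascorbate mice, 65 in the primary mouse and 17, 4 and 3 in the PBS knockdown mice. Hoxc6 had 0 and 3 counts in the Tet2-restored mice, 0 and 3 in the ascorbate mice, 49 in the primary mouse and 9, 0 and 2 in the PBS knockdown mice. For all 4 genes the primary mouse was highest and mouse 16 next, and for Hoxc4 and Hoxc5 every Tet2-restored and ascorbate mouse lay below every PBS knockdown mouse. Against the PBS knockdown mice, the log2 fold change with Tet2 restoration was -2.67 for Hoxc4 (SE 1.14, edgeR adjusted p = 0.161) and -3.58 for Hoxc5 (SE 1.24, 0.107). Without mouse 16 these were -0.91 (0.523) and -1.86 (0.269). With ascorbate, Hoxc4 had -3.22 (SE 1.2, edgeR adjusted p = 0.155), which was -1.47 without mouse 16 (0.388), and Hoxc5, with 1 count in the ascorbate mice, did not pass either (0.0725). DESeq2 called both genes in both comparisons, limma voom neither, and the 2 comparisons share the PBS knockdown mice. Of all genes tested, 24.5% had both Tet2-restored mice and 23.5% both ascorbate mice below all PBS knockdown mice. Against the secondary PBS knockdown mice, the primary mouse had log2 fold changes of 2.68 for Hoxc5 (SE 1.13, edgeR adjusted p = 0.548) and 2.34 for Hoxc4 (SE 1.11, 0.592), which were 4.42 (0.0527) and 4.12 (0.0632) without mouse 16. In that comparison, which rests on 1 primary mouse, limma voom called both Hoxc5 and Hoxc4 and DESeq2 neither. Hoxc6 and Hoxc9 were tested only in the fit with the primary mouse. There a group of 1 mouse let a gene pass the filter on low counts through 1 library, so both are given by their counts only. Of the Hoxc5 exonic bases, 166 are shared with Hoxc10, which had 1 count over the 8 libraries.

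Meis2, a relative of Meis1, was also highest in the primary mouse. It had 0.3 and 0.92 FPKM in the Tet2-restored mice, 0.78 and 0.92 FPKM in the ascorbate mice, 1.69 FPKM in the primary mouse and 0.76, 0.72 and 0.21 FPKM in the PBS knockdown mice. The difference between the primary and the secondary PBS knockdown mice did not pass (log2 fold change 1.56, SE 0.7, edgeR adjusted p = 0.558).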
